A study of Mus musculus with 14 samples.

Results

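Interferon response genes are a set of 34 named genes whose transcripts are known to rise when cells sense interferon. They were chosen by name, and each was read from its brightest probe set over all 14 arrays, counting only probe sets that carry that 1 gene symbol. Of the 34, 32 had such a probe set among 18194 genes on the array, and 31 were bright enough to be tested among 13035 genes. The brightness limit was a log2 level of 6.87 in the highest of the 3 tissue means. Oas2 was measured and lay under it, and Isg15 and Ifi44 were not analysed here. The samples were RNA from liver sinusoidal endothelial cells (LSEC, the cells lining the liver's capillaries), lung endothelial cells and thymus cells of mice on an FVBn background. Every mouse carried loxP-flanked (L/L) alleles of Fk1, Fk2 and Afx, older names of the transcription factors Foxo1, Foxo3 and Foxo4. The Cre+ groups also carried MxCre, and the controls (MxCre-) did not: 3 Cre+ and 3 control arrays of LSEC, 2 and 2 of lung endothelial cells, and 2 and 2 of thymus. MxCre is a Cre recombinase driven by the Mx promoter, which itself responds to interferon, so it is active in many cell types and not in endothelium alone. The labels state neither how or when Cre was induced, nor the animals' age, nor whether replicates came from separate animals, so a p-value here measures the spread between these samples, which may be technical.

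Interferons are secreted signals of antiviral and immune defence. Type I interferons bind the receptor of Ifnar1 and Ifnar2, which activates Jak kinases and then a complex that includes Stat2 and Irf9, while type II interferon acts through Ifngr1 and Ifngr2. The activated factors bind short elements in target promoters, and the products block viral RNA and protein synthesis, carry antigen to the cell surface and attract lymphocytes.

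The promoters of 5 of these genes are shown because the results turn on them: Gbp3, Cxcl10 and Oasl1 were lower in Cre+ LSEC, whereas Oas1a and Bst2 did not pass the test there. Each runs 5′ to 3′ on the gene's own strand over 250 bases before and 50 bases after the start, from RefSeq on build GRCm38.p6, and capitals mark every match, on either strand, to the core of the interferon-stimulated response element, which is GAAA, any 2 bases and GAAA.
Gbp3: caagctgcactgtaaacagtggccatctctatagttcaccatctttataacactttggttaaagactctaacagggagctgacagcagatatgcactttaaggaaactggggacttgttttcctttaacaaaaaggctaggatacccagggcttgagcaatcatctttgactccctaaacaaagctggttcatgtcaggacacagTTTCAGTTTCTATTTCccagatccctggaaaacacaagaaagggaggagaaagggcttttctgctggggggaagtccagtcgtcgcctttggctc
Cxcl10: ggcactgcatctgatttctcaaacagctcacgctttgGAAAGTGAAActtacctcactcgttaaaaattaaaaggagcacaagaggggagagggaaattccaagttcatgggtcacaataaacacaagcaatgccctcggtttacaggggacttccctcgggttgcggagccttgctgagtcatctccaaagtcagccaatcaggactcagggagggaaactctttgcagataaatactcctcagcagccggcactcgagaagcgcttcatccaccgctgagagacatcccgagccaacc
Oasl1: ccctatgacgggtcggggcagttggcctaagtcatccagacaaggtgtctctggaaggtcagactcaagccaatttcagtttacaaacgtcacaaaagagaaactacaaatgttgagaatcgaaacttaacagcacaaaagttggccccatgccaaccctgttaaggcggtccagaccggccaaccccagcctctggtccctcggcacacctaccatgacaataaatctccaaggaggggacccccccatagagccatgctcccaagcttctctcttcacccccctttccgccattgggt
Oas1a: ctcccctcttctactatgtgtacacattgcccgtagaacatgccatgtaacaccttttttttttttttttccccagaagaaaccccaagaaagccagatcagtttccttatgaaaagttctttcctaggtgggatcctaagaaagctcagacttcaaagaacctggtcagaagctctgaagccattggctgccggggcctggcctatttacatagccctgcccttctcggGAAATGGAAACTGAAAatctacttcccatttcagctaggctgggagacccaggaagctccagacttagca
Bst2: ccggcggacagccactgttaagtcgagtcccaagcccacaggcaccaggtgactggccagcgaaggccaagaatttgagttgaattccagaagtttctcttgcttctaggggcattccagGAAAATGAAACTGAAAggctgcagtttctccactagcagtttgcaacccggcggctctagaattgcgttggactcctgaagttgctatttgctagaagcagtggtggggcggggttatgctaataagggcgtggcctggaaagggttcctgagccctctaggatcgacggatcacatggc
These windows are chr3:142559794-142560093 (+ strand) for Gbp3, which has 2 promoters in the table and is shown by the first, chr5:92348840-92349139 (- strand) for Cxcl10 and chr5:114922990-114923289 (+ strand) for Oasl1. They are chr5:120907476-120907775 (- strand) for Oas1a and chr8:71537423-71537722 (- strand) for Bst2. Gbp3, Oas1a and Bst2 each held 2 matches that overlap, beginning 45 and 39 bases before the start in Gbp3, 20 and 14 in Oas1a, and 130 and 124 in Bst2. Cxcl10 held 1 match, 213 bases before its start, and the window of Oasl1 held no match.

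Promoter windows were found for 25 of the 32 measured genes. The response element core was in 13 of these 25 (52%), against 3.99% of the windows of all 27025 genes in the table. The 13 were Ifih1, Stat2, Oas1a, Oas3, Ifit1, Ifit3, Rsad2, Eif2ak2, Bst2, Gbp2, Gbp3, Cxcl10 and B2m. TTCNNNGAA, the core of the gamma-activated site, was in 7 of 25 (28%), against 9.55% of all genes, and in Bst2 it overlapped the capitals. GTAAACA, a core of the forkhead factors' binding site, was in 2 of 25 (8%), against 4.05% of all genes. Those 2 were Gbp3, 239 bases before its start, and Rsad2, 212 bases before its start. Both strands were searched, and a match is a description of the letters, not of binding.

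Levels are quantile normalized log2 values, and a difference is Cre+ minus control on that scale. A gene is called where limma's p-value, adjusted by Benjamini-Hochberg over all 13035 genes, was under 0.05. Of the floxed genes, Foxo1 and Foxo4 were called lower in Cre+ LSEC and Cre+ thymus and were not called in lung, while Foxo3 was called lower in LSEC and higher in thymus. Foxo1 stood at 7.84 to 8.19 in Cre+ LSEC against 8.87 to 8.97 in controls, and at 8.24 to 8.49 in Cre+ lung samples against 8.86 to 8.90 in controls. These are values of its brightest probe set. Other Foxo1 probe sets differed by -2.10 and -3.56 in LSEC and by -1.06 and -1.29 in lung, without overlap. A dim further one differed by 1.73 in LSEC and -0.37 in lung. The brightest Foxo4 probe set differed by -2.15 in LSEC, -3.24 in thymus and -1.10 in lung. Its other probe set differed by -0.10 in LSEC and -0.07 in thymus, where groups overlapped, and by -0.61 in lung. The Foxo4 calls thus hold for the brightest probe set. Where these probe sets lie relative to the deleted part was not determined. The summed marker lists, given as a mean log2 level per array, matched the labels in part. Thymocyte markers stood at 11.2 to 11.4 in Cre+ thymus and 11.3 in control thymus. Endothelial markers stood at 10.04 to 10.32 in Cre+ LSEC and 10.38 to 10.76 in control LSEC. LSEC markers stood at 8.35 to 9.07 in Cre+ LSEC and 10.3 to 10.8 in control LSEC, with 8 of 9 tested called lower. Cd209b, not tested, lay under the brightness limit in Cre+ LSEC and above it in control LSEC. The lung samples held lung epithelial markers (10.4 to 10.7 in Cre+ and 10.4 to 10.5 in control arrays) and mesenchymal markers (10.6 to 10.7 and 10.7 to 10.9) beside endothelial ones (9.46 to 9.57 and 9.65 to 9.99). In such bulk samples, fewer cells of a type and less RNA per cell cannot be told apart.

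One array stood apart in these genes. In thymus Cre+ replicate 2, 30 of the 31 tested genes were higher than in Cre+ replicate 1, with a median of 0.45, against 47.8% of all genes. Of the 31, 14 were more than 0.5 higher there, against 6.96% of all genes, and Rtp4, Usp18 and Oas3 had the widest gaps. A further list of interferon-stimulated genes, which shares no member with the 34, showed the same order in 43 of 52 genes, with a median of 0.31. That list was written with earlier results of these data known and was read on the same arrays, so it is not independent support. The mean level of the 31 genes was 8.46 and 8.92 in the Cre+ thymus arrays, against 8.54 and 8.46 in the control ones. In the LSEC arrays it was 7.98, 7.95 and 7.86 in Cre+ and 8.16, 8.16 and 8.25 in controls. In lung it was 7.86 and 7.89 in Cre+ and 7.82 and 7.80 in controls. The plot of the mean by array shows the thymus array alone at the top, and the LSEC groups apart. Between Cre+ thymus replicates 1 and 2 the summed markers were 11.4 and 11.2 for thymocytes, 7.61 and 7.64 for macrophages, 8.48 and 8.46 for dendritic cells, 8.78 and 8.83 for natural killer and T cells, 7.01 and 6.81 for B cells, and 5.99 and 6.52 for neutrophils. Of these lists the neutrophil one differed most, with Elane and Camp under the brightness limit in both thymus groups, and its part in the result was not tested. Thymus results are therefore given with and without this array.

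**Figure D1:**
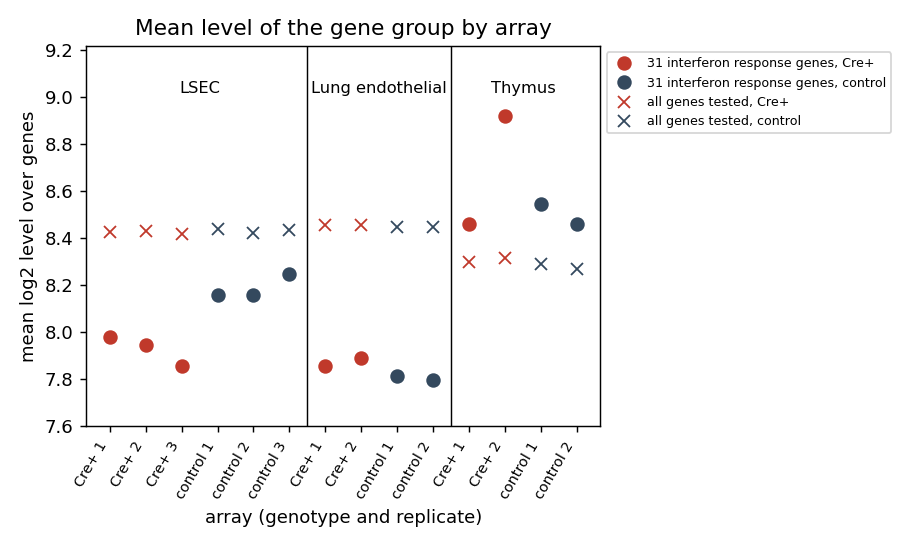
Mean log2 level per array (y axis) of the 31 tested interferon response genes (circles) and of all 13035 tested genes (crosses), with Cre+ arrays left of control arrays in each tissue. Thymus Cre+ replicate 2 stands at 8.92, above the other thymus arrays at 8.46 to 8.54, and the 3 Cre+ LSEC arrays (7.86 to 7.98) lie below the 3 control LSEC arrays (8.16 to 8.25).

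In LSEC, 3 of the 31 genes were called lower in Cre+ samples, Gbp3, Cxcl10 and Oasl1, and none was called higher. Over all genes 3.25% were called lower and 2.81% higher. The 3 Cre+ arrays lay wholly below the 3 controls in 10 of the 31 genes, against 11.2% of all genes, and wholly above them in 1 (Bst2), against 12.5% of all genes. By sign alone 24 of the 31 differences were negative, against 48.8% of all genes, and the median difference was -0.18, against 0.01 over all genes. At an unadjusted p under 0.05 there were 12 of the 31 genes, against 19.9% of all genes. Without either 1 of the Cre+ thymus arrays, which enter only the shared spread, 5 were called lower, Ifit1 and Oasl2 being added. These genes answer to common signals and are not 31 independent readings.

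**Figure D2:**
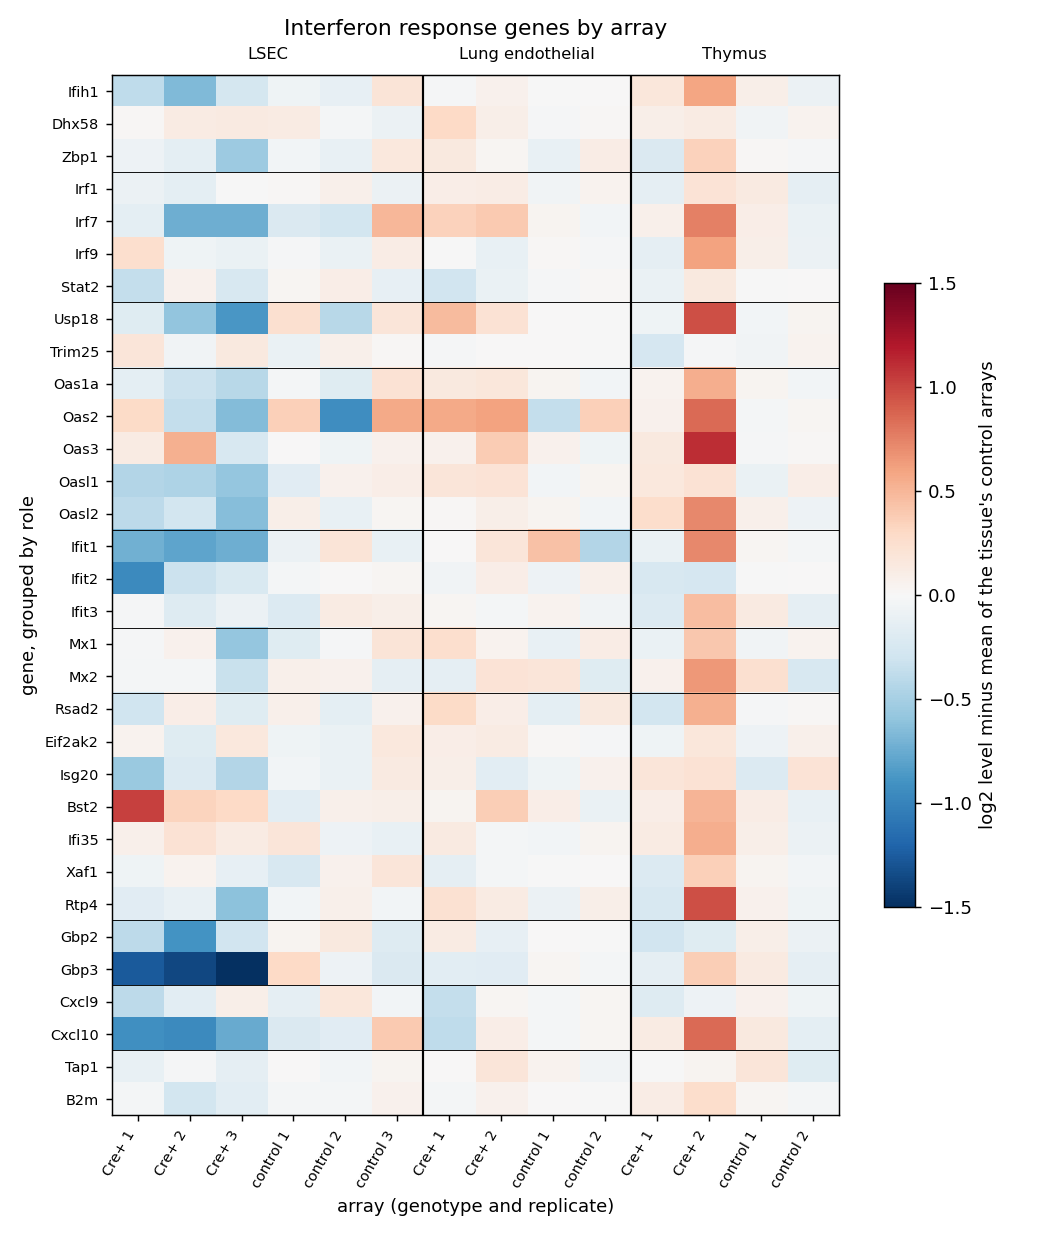
Each row is 1 of the 32 measured genes (Oas2 was not tested), each column 1 array, and the colour is the log2 level minus the mean of that tissue's control arrays, with differences beyond 1.5 drawn in the end colour. The 3 Cre+ LSEC columns are blue in Gbp3, Cxcl10, Ifit1 and Oasl1, and the column of thymus Cre+ replicate 2 is red in most rows.

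Gbp3 and Gbp2 encode guanylate-binding proteins, large GTPases that attack intracellular pathogens and are classic targets of type II interferon. Gbp3 measured 6.28, 6.18 and 5.71 in Cre+ LSEC, against 7.85, 7.47 and 7.33 in control LSEC. Every Cre+ array lay more than 1 log2 unit below the lowest control. The difference was -1.49 ± 0.18 (SE, 3 against 3 arrays, limma adjusted p = 0.000766). Gbp3 was at 7.10 and 7.09 in Cre+ lung samples and at 7.29 and 7.22 in lung controls, groups that do not overlap and differ by -0.16 (limma adjusted p = 1). In thymus it was at 7.36 and 7.87 in Cre+ and at 7.64 and 7.37 in control samples, which overlap. The low level was thus seen in Cre+ LSEC, the lowest of the 6 groups, while the other groups averaged between 7.10 and 7.62. Gbp2 measured 7.71, 7.21 and 7.81 in Cre+ LSEC and 8.14, 8.25 and 7.91 in controls, again without overlap. Its difference of -0.53 ± 0.15 did not pass (limma adjusted p = 0.0652). The other Gbp2 probe set measured 7.39, 7.70 and 7.59 in Cre+ LSEC and 8.08, 7.99 and 7.58 in controls. There the groups overlapped (-0.32), so the separation holds on the brightest probe set alone.

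Cxcl10 and Cxcl9 encode chemokines that draw Cxcr3-bearing T cells and natural killer cells. Cxcl10 measured 5.72, 5.69 and 5.89 in Cre+ LSEC, against 6.42, 6.48 and 7.04 in control LSEC, with no overlap. The difference was -0.88 ± 0.21 (limma adjusted p = 0.0312). The call was lost when any 1 of Cre+ replicates 1, 2 and 3 or control replicates 2 and 3 of LSEC was left out, the adjusted p then lying between 0.0543 and 0.0982. All these levels but that of control replicate 3 lie below the brightness limit of 6.87, and Cxcl10 entered the test through thymus. Cxcl9 measured 7.12, 7.35 and 7.60 in Cre+ LSEC and 7.38, 7.68 and 7.47 in controls, which overlap (difference -0.16, limma adjusted p = 0.592).

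The Oas family encodes synthetases and related proteins that, on sensing double-stranded RNA, start RNA decay or boost RNA sensing. Oasl1, which in mice restrains translation of Irf7, measured 7.57, 7.54 and 7.43 in Cre+ LSEC, against 7.84, 8.08 and 8.10 in control LSEC. The spread within each group was small and the groups did not overlap (-0.49 ± 0.09, limma adjusted p = 0.00778). The call was lost when only the 6 LSEC arrays were fitted (limma adjusted p = 0.0582). Its relative Oasl2 measured 7.14, 7.26 and 6.90 in Cre+ LSEC and 7.62, 7.42 and 7.56 in controls, a difference of -0.44 ± 0.13 without overlap that did not pass (limma adjusted p = 0.0692). Oas1a stood at 8.68, 8.51 and 8.40 in Cre+ LSEC and 8.79, 8.64 and 9.04 in controls, overlapping by 1 array (-0.30, limma adjusted p = 0.246). Oas3 stood at 7.80, 8.20 and 7.44 in Cre+ LSEC and 7.68, 7.61 and 7.74 in controls, its Cre+ arrays falling on both sides of the controls (0.14, limma adjusted p = 0.795). The untested Oas2 averaged 5.43 in Cre+ and 5.66 in control LSEC. Of the 4 tested genes of the family 1 was called lower, against 3.25% of all genes, and Oas3 was the only tested one with a positive difference.

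The Ifit genes encode proteins that bind viral RNA ends. Ifit1 measured 4.83, 4.76 and 4.81 in Cre+ LSEC, against 5.46, 5.74 and 5.44 in controls. These are dim levels, the Cre+ arrays agree closely and no array overlaps (-0.75 ± 0.23, limma adjusted p = 0.0822). Ifit2 measured 6.47, 7.10 and 7.20 in Cre+ LSEC against 7.39, 7.43 and 7.45 in controls, with replicate 1 the lowest (-0.50 ± 0.15, limma adjusted p = 0.0862). Ifit3 overlapped between groups (-0.10, limma adjusted p = 0.778).

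**Figure D3:**
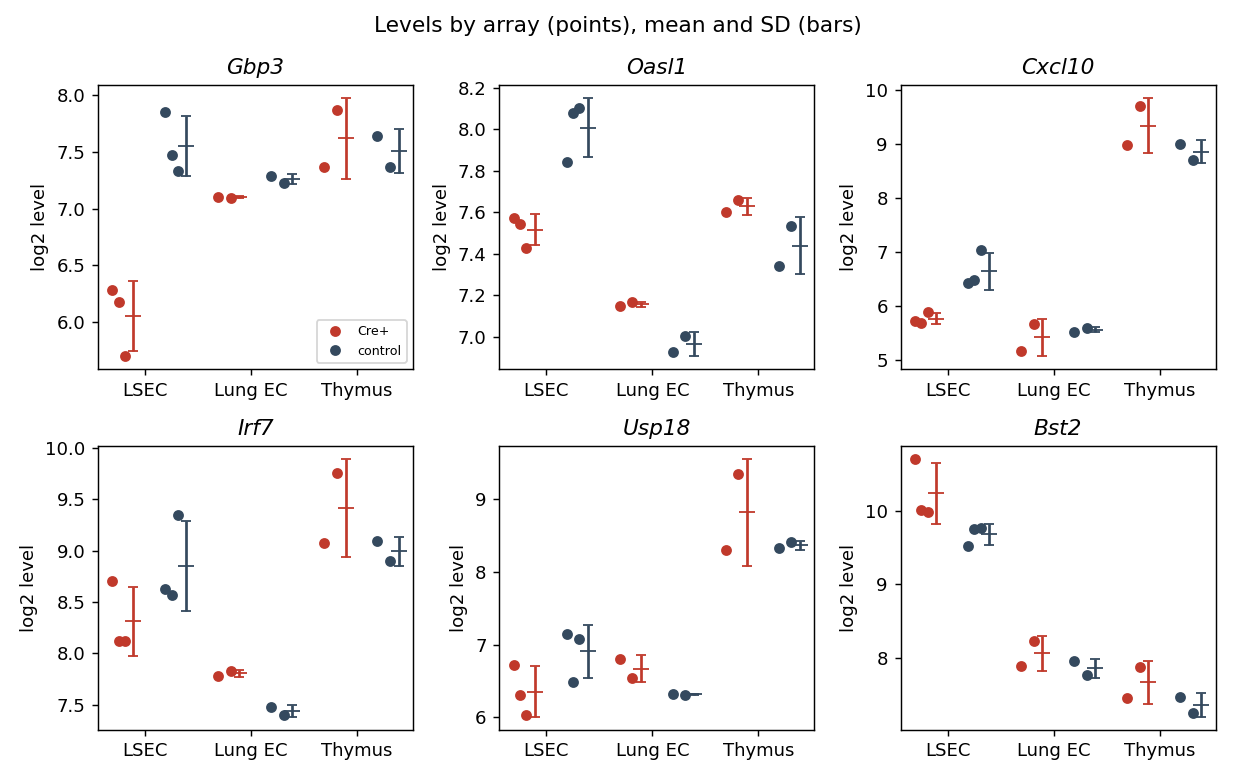
Log2 level by array (points) with mean and SD (bars) for 6 genes in the 3 tissues, Cre+ (red) left of control (dark). Gbp3, Oasl1 and Cxcl10 separate the LSEC groups, Bst2 lies higher in Cre+ LSEC without passing the test, and Irf7 and Usp18 stand high in 1 of the 2 Cre+ thymus arrays.

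The sensors and factors at the top of the response did not pass in LSEC. Ifih1, a sensor of long double-stranded RNA, measured 7.37, 7.09 and 7.48 in Cre+ LSEC and 7.68, 7.62 and 7.94 in controls, without overlap (-0.44 ± 0.13, limma adjusted p = 0.0861). Dhx58, which modulates the same pathway, and Zbp1, a sensor of Z-form nucleic acid, overlapped between groups (0.09 and -0.26, limma adjusted p = 0.629 and 0.413). Irf7, the factor that amplifies type I interferon production, measured 8.70, 8.12 and 8.12 in Cre+ LSEC and 8.63, 8.57 and 9.35 in controls. Its highest array in each group, Cre+ replicate 1 and control replicate 3, was also the highest in summed macrophage markers, which stood at 9.25, 8.37 and 8.10 in Cre+ LSEC and 8.36, 8.30 and 9.35 in controls. None of the 11 macrophage markers tested was called in LSEC, Clec4f and Timd4 lay under the brightness limit in both groups, and the list's part in the spread of Irf7 was not tested. The Irf7 difference was -0.54 ± 0.23 (limma adjusted p = 0.227). Irf1, Irf9 and Stat2, the other factors of the response, differed by -0.08, 0.03 and -0.18, and none was called. Usp18, the protease that removes Isg15 and damps the type I receptor, measured 6.72, 6.31 and 6.04 in Cre+ LSEC and 7.15, 6.48 and 7.08 in controls, overlapping in 1 array (-0.55 ± 0.26, limma adjusted p = 0.274). Trim25, a ligase that activates RNA sensing, differed by 0.09.

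Among the remaining effectors in LSEC, Isg20, an RNA exonuclease, measured 6.26, 6.61 and 6.38 in Cre+ and 6.78, 6.72 and 6.96 in control samples, without overlap (-0.40 ± 0.13, limma adjusted p = 0.0952). Rtp4 also did not overlap, with 8.60, 8.66 and 8.15 in Cre+ against 8.74, 8.84 and 8.74 in controls (-0.30, limma adjusted p = 0.55). Bst2, the tether that holds budding virions to the cell, ran the other way. It measured 10.71, 10.01 and 9.99 in Cre+ LSEC and 9.52, 9.76 and 9.77 in controls, without overlap and highest in Cre+ replicate 1 (0.56 ± 0.19, limma adjusted p = 0.128). Bst2 is also a marker of plasmacytoid dendritic cells. The dendritic list that includes it stood at 7.75 to 7.93 in Cre+ LSEC and 7.95 to 8.02 in controls. Of that list H2-Ab1 and Tcf4 were called lower, and Itgax, Cd209a and Siglech lay under the brightness limit in both groups. Mx1 and Mx2, the dynamin-like GTPases whose promoter family drives Cre here, differed by -0.18 and -0.13 (limma adjusted p = 0.65 and 0.754). Their Cre+ and control arrays overlapped, with Mx2 at 7.68, 7.69 and 7.39 in Cre+ LSEC and 7.79, 7.78 and 7.58 in controls. Eif2ak2, the kinase that halts translation on double-stranded RNA, Ifi35, Xaf1 and the antigen presentation genes Tap1 and B2m lay between -0.15 and 0.14, and none was called.

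The choice of probe set mattered for Rsad2, whose product viperin makes a chain-terminating nucleotide. Its brightest probe set measured 7.81, 8.22 and 7.93 in Cre+ LSEC and 8.19, 7.97 and 8.18 in controls, overlapping (-0.13, limma adjusted p = 0.766). A second probe set measured 6.69, 6.85 and 6.33 in Cre+ LSEC and 7.82, 7.56 and 7.72 in controls. The last measured 7.69, 7.75 and 7.66 in Cre+ LSEC and 8.45, 8.25 and 8.62 in controls. The groups thus lie apart on 2 of 3 probe sets, by -1.07 and -0.74, and overlap on the brightest. Averaged over its probe sets, Rsad2 fell by 0.65 in LSEC (limma adjusted p = 0.0207). Of the 32 measured genes 13 had several probe sets, and in LSEC a probe set of Dhx58, of Rtp4 and of Tap1 had the opposite sign to the brightest.

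**Figure D4:**
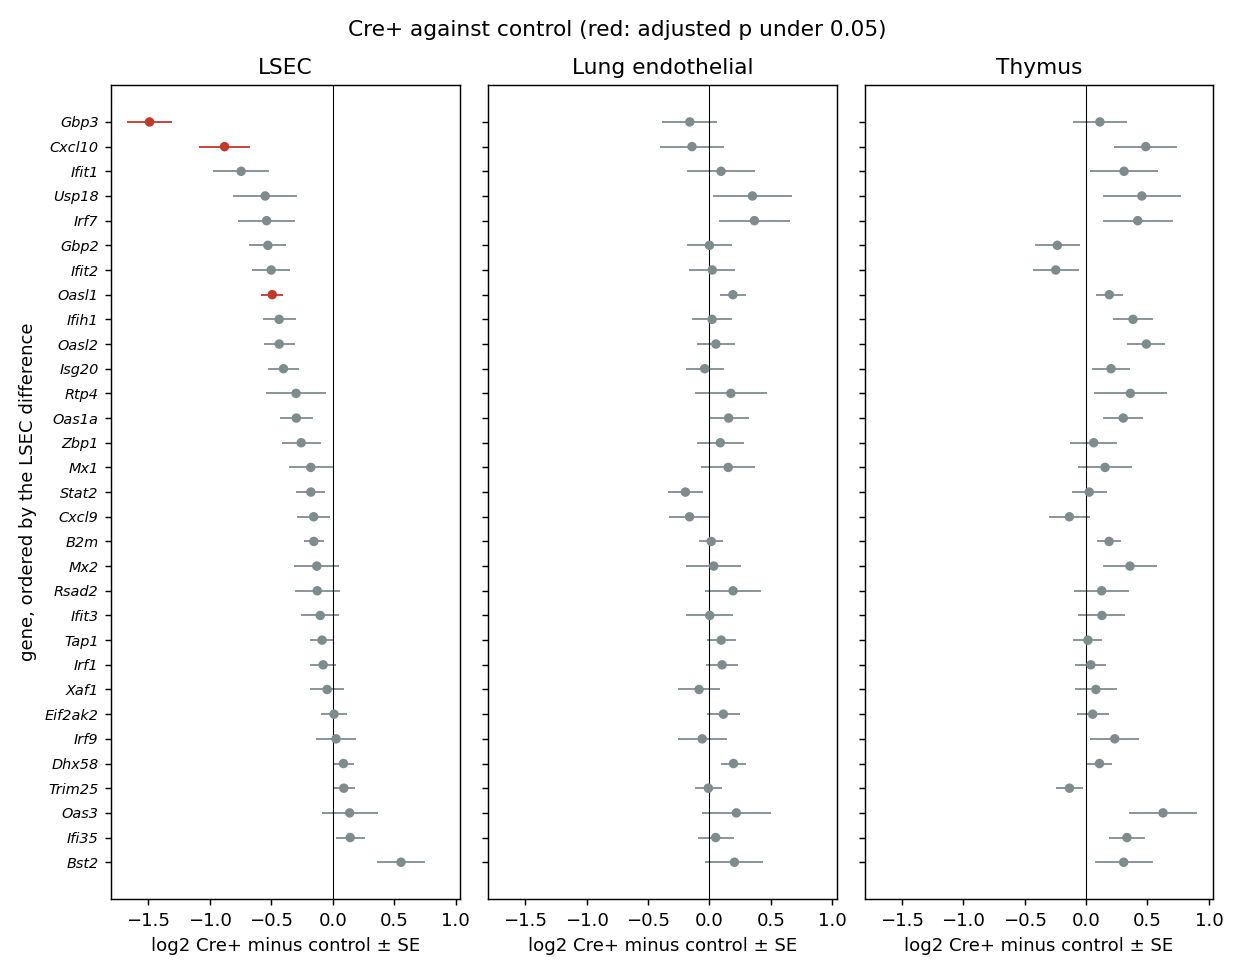
Cre+ minus control (x axis, log2, with SE) for the 31 tested genes in each tissue, ordered by the LSEC difference, with red marking a limma adjusted p under 0.05. Gbp3 (-1.49), Cxcl10 (-0.88) and Oasl1 (-0.49) are red in LSEC, and no gene is red in lung endothelial cells or thymus.

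Beside the LSEC falls, LSEC markers were lower in the same samples (8 of 9 tested called). Neutrophil markers stood at 6.31 to 7.68 in Cre+ LSEC against 5.29 to 5.71 in controls. Of these S100a8 was called higher, and Elane and Camp lay under the brightness limit in both groups. Endothelial markers were lower without overlap, with Pecam1 and Cldn5 called lower. In lists whose groups overlapped, Col1a2, Pdgfra and Prss16 were called lower and Ednrb and Ttr higher, Pdgfra being under the brightness limit in both groups. The part of these lists in the interferon gene values was not tested.

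In lung endothelial cells none of the 31 genes was called in either direction, and none reached an unadjusted p under 0.05 in limma, against 4.56% of all genes. Over all genes 0.023% were called higher and 0.0844% lower, so few genes of any kind were called there. The Cre+ arrays lay wholly above the controls in 8 of 31 genes (21.8% of all genes) and wholly below in 3 (16.6% of all genes). By sign alone 8 of the 31 differences were negative, against 45.1% of all genes. The median difference was 0.05, against 0.02 over all genes. Irf7 measured 7.78 and 7.83 in Cre+ lung samples and 7.48 and 7.40 in controls, the highest difference among the tested genes (0.37 ± 0.29, limma adjusted p = 1). Usp18 measured 6.80 and 6.54 in Cre+ lung samples and 6.32 and 6.31 in controls (0.35 ± 0.32, limma adjusted p = 1). Oasl1 measured 7.15 and 7.17 in Cre+ lung samples and 6.92 and 7.01 in controls (0.19 ± 0.11, limma adjusted p = 1). These 3 genes do not overlap between the lung groups and lie above the controls, whereas in LSEC their differences were negative. Oas2, too dim to test, averaged 5.50 in Cre+ lung samples and 4.92 in controls. Summed macrophage markers also stood higher without overlap, at 8.67 and 8.81 in Cre+ lung samples against 8.28 and 8.36 in controls, with none called and Clec4f, Cd5l and Timd4 under the brightness limit in both groups. Lung endothelial markers stood lower without overlap, at 8.94 and 8.92 in Cre+ lung samples against 9.13 and 9.08 in controls. Of that list Aplnr was called lower, and it lay under the brightness limit in Cre+ lung samples. Endothelial markers were also lower without overlap, at 9.46 and 9.57 against 9.99 and 9.65, with none called. The part of these lists in the lung values was not tested. Cxcl10 measured 5.18 and 5.66 in Cre+ lung samples and 5.53 and 5.59 in controls, which overlap.

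In thymus none of the 31 genes was called, and 4 (Ifih1, Oas3, Oasl2 and Ifi35) had an unadjusted p under 0.05 in limma, against 12.4% of all genes. Over all genes 0.176% were called higher and 0.238% lower. The Cre+ arrays lay wholly above the controls in 8 of 31 genes (23.1% of all genes) and wholly below in 3, Ifit2, Gbp2 and Cxcl9 (18.5% of all genes). The other probe set of Gbp2 overlapped in thymus, at 8.63 and 8.85 in Cre+ against 8.87 and 8.73 in controls. That of Cxcl9 also overlapped and leaned the other way, at 6.64 and 7.46 against 6.95 and 6.50 (0.33). By sign alone 4 of the 31 differences were negative with both Cre+ arrays, against 44.7% of all genes. The median difference was 0.19 with both Cre+ arrays, against 0.02 over all genes. Without Cre+ replicate 2 the median was -0.06 and no gene was called. Without Cre+ replicate 1 it was 0.41, and Oasl2 and Rtp4 were called higher. The sign of the median therefore rests on 1 array. Several marker lists also stood higher in Cre+ than in control thymus without overlap. They were macrophage (7.61 and 7.64 against 7.34 and 7.36), dendritic (8.46 to 8.48 against 8.28 to 8.31), mesenchymal (8.31 to 8.38 against 7.88 to 7.94) and thymic epithelial markers (10.3 to 10.4 against 10.1). LSEC markers (6.93 and 7.14 against 6.82 and 6.75) and lung endothelial markers (7.23 and 7.23 against 7.10 and 7.12) did so too. Lung epithelial markers also did, at 6.98 and 7.21 against 6.97 and 6.70. Of the mesenchymal markers Col3a1 was called higher, while no marker of the other lists named here was called. Clec4f, Cd5l, Vsig4, Marco and Itgam of the macrophage list and Flt3, Cd209a and Siglech of the dendritic list lay under the brightness limit in both groups. So did Stab2, Lyve1, Oit3, Gpr182 and Cd209b of the LSEC list and Tmem100, Cldn5, Ednrb and Aplnr of the lung endothelial list. Of the lung epithelial list Sftpc, Sftpa1 and Scgb1a1 lay under it in both groups. Of the mesenchymal list Pdgfra and Lrat lay under it in both groups, and Col1a1 and Pdgfrb in controls alone. The part of these lists in the thymus values was not tested.

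The thymus arrays show this gene by gene. Usp18 measured 8.30 and 9.33 in Cre+ thymus and 8.32 and 8.40 in controls. Oas3 measured 7.87 and 8.83 in Cre+ thymus and 7.71 and 7.75 in controls. In both, replicate 2 alone stood far above the controls while replicate 1 lay near them. Rtp4 measured 8.94 and 10.14 in Cre+ thymus and 9.24 and 9.12 in controls, replicate 1 being below both controls. Irf7 measured 9.08 and 9.76 in Cre+ thymus and 9.10 and 8.90 in controls, and Mx1 measured 7.23 and 7.74 against 7.28 and 7.39. Oasl2 was the gene nearest to a call, with 8.73 and 9.18 in Cre+ thymus and 8.54 and 8.39 in controls, both Cre+ arrays above both controls (0.49 ± 0.15, limma adjusted p = 0.208). Without Cre+ replicate 2 its difference was 0.26. Ifit2, Gbp2 and Cxcl9 lay below both controls in both Cre+ arrays, on the brightest probe set of each. Ifit2 measured 7.77 and 7.77 in Cre+ thymus and 8.01 and 8.03 in controls (-0.25 ± 0.19, limma adjusted p = 0.656).

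The Cre effect was then compared between tissues by the difference of the differences, with the same LSEC arrays set against lung and against thymus. Between LSEC and lung endothelial cells none of the 31 was called, and 7 had an unadjusted p under 0.05 in limma, against 9.57% of all genes. Over all genes 0.284% were called higher and 0.33% lower. Oasl1 was nearest, with -0.49 in LSEC and 0.19 in lung (-0.68 ± 0.14, limma adjusted p = 0.0619), and Gbp3 followed with -1.49 in LSEC and -0.16 in lung (-1.33 ± 0.29, limma adjusted p = 0.0771). The falls in LSEC are thus not shown to differ from the lung values. Between LSEC and thymus 3 genes were called lower in LSEC and none higher, where 1.44% of all genes were called lower and 0.898% higher. They were Gbp3 (-1.60 ± 0.29, limma adjusted p = 0.0179), Oasl1 (-0.68 ± 0.14, limma adjusted p = 0.0328) and Oasl2 (-0.93 ± 0.20, limma adjusted p = 0.0369). Without thymus Cre+ replicate 2 none of these 3 was called, although in thymus alone Oasl1 and Oasl2 still differed by 0.16 and 0.26 and Gbp3 by -0.14. Without thymus Cre+ replicate 1 the count was 9. It was 1 without any 1 of the 4 lung arrays, LSEC Cre+ replicate 3, LSEC control replicate 3 or thymus control replicate 1, and 0 without thymus control replicate 2. Between lung endothelial cells and thymus none was called, and none had an unadjusted p under 0.05 in limma (7.90% of all genes). There, 0.00767% of all genes were called higher and 0.023% lower.

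The other genes of the pathway were read from lists of ligands, receptors, signalling genes, nucleic acid sensors and further interferon-stimulated genes. Of 11 listed interferons 7 were measured and 2, Ifna1 and Ifna2, were bright enough to test, and neither was called in any tissue. Ifnb1 measured 6.41, 6.71 and 6.42 in Cre+ LSEC and 6.68, 6.56 and 6.52 in controls, overlapping and under the brightness limit. None of the 6 receptor genes was called in any tissue. Ifnar1 measured 8.95, 8.97 and 8.94 in Cre+ LSEC and 9.14, 9.28 and 9.25 in controls, apart but not past the test (-0.27 ± 0.08, limma adjusted p = 0.0903). Ifngr1 measured 9.41, 9.01 and 9.13 in Cre+ LSEC and 9.48, 9.51 and 9.92 in controls (-0.45 ± 0.13, limma adjusted p = 0.0691). Ifnar2 and Ifngr2 differed by -0.06 and -0.11.

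Of 15 signalling genes tested, 1 was called lower in LSEC and none higher, against 3.25% and 2.81% of all genes. Jak1, the kinase shared by the type I and type II receptors, measured 10.76, 10.55 and 10.70 in Cre+ LSEC, against 11.28, 11.27 and 11.01 in controls. It was lower without overlap (-0.52 ± 0.10, limma adjusted p = 0.00902). Of 12 nucleic acid sensing genes, 1 was called lower in LSEC, against the same 3.25%, and none higher. It was Ifi204, a DNA sensor. Ifi204 measured 7.73, 6.93 and 7.48 in Cre+ LSEC, against 8.88, 8.73 and 8.94 in controls, a difference of -1.47 ± 0.19 (limma adjusted p = 0.00107). Ifi204 measured 7.19 and 6.58 in Cre+ thymus and 7.79 and 7.79 in controls, also lower without overlap but not called (-0.91, limma adjusted p = 0.124), and it was lower in replicate 2 than in replicate 1, opposite to most of the 31 genes.

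Of 52 further interferon-stimulated genes tested, 2 were called lower and 1 higher in LSEC, with a median difference of -0.07. These counts lie near the 3.25% lower and 2.81% higher over all genes, so they set the list apart in neither direction. Iigp1, an immunity-related GTPase, measured 7.86, 7.29 and 7.74 in Cre+ LSEC, against 8.69, 8.82 and 8.51 in controls (-1.05 ± 0.26, limma adjusted p = 0.0363). H2-K1, a class I antigen-presenting molecule, measured 12.37, 12.45 and 12.13 in Cre+ LSEC, against 12.82, 12.61 and 12.80 in controls (-0.43 ± 0.11, limma adjusted p = 0.048). Both groups of both genes are apart. Nmi, a partner of Stat factors, ran the other way with 8.43, 8.34 and 8.42 in Cre+ LSEC, against 8.03, 7.97 and 7.89 in controls (0.43 ± 0.08, limma adjusted p = 0.00661). No gene of these 5 lists was called in lung endothelial cells or thymus.

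The control arrays show how the set differs between tissues before any Cre effect. Control LSEC were higher than control lung samples in 12 of 31 genes and lower in 1, where 25.9% of all genes were called higher and 20.2% lower. Bst2 measured 9.52, 9.76 and 9.77 in control LSEC, against 7.95 and 7.76 in control lung (1.83 ± 0.22, limma adjusted p = 4.74e-05). Irf7 (1.41 ± 0.26, limma adjusted p = 0.00107), Cxcl10 (1.09 ± 0.23, limma adjusted p = 0.00296) and Oasl1 (1.04 ± 0.10, limma adjusted p = 1.05e-05) followed. The others higher in control LSEC were Ifih1, Trim25, Oas1a, Ifit2, Mx2, Ifi35, Tap1 and B2m. The 1 gene lower there was Isg20 (-0.95 ± 0.14, limma adjusted p = 0.000265).

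Control thymus was set against the same control LSEC arrays and against the control lung arrays, so these comparisons share samples. Against control LSEC it was higher in 12 of 31 genes (27.9% of all genes) and lower in 8 (37.1% of all genes), and without control thymus replicate 2 the 20 calls became 13. Against control lung it was higher in 15 of 31 (27.8% of all genes) and lower in 2, Xaf1 and Cxcl9 (32.7% of all genes). Isg20 measured 9.92 and 10.32 in control thymus, against 6.78, 6.72 and 6.96 in control LSEC and 7.71 and 7.83 in control lung. It was higher in thymus by 3.30 ± 0.14 over LSEC (limma adjusted p = 2.93e-09), and the order of the tissues, thymus, lung and LSEC, shows no overlap between neighbours. Cxcl10 measured 9.01 and 8.71 in control thymus, against 6.42, 6.48 and 7.04 in control LSEC and 5.53 and 5.59 in control lung, again without overlap (2.21 ± 0.23 over LSEC, limma adjusted p = 5.91e-06). As tissue means over Cre+ and control arrays, Cxcl10, Ifit1 and Usp18 reached the brightness limit in thymus alone. The filter thus favoured their calls as higher in thymus, although the control LSEC arrays by themselves averaged 6.91 for Usp18. Bst2 was highest in LSEC, with 7.47 and 7.24 in control thymus against 9.52 to 9.77 in control LSEC (-2.33 ± 0.22, limma adjusted p = 1.8e-06), while thymus and lung did not differ past the test (-0.50 ± 0.24, limma adjusted p = 0.0875).

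Tap1, the transporter that loads peptides onto class I molecules, measured 9.65 and 9.29 in control thymus, against 7.95, 7.91 and 7.99 in control LSEC and 7.10 and 6.98 in control lung. Each tissue was apart from the next (thymus over LSEC 1.52 ± 0.11, limma adjusted p = 1.9e-07). B2m, the light chain of the same molecules, did not follow that order, with 12.96 and 12.90 in control thymus, 13.15, 13.15 and 13.25 in control LSEC and 12.51 and 12.50 in control lung. Also higher in control thymus than in control LSEC were Zbp1, Irf1, Irf9, Stat2, Usp18, Oasl2, Ifit1, Ifit2 and Gbp2, and lower were Ifih1, Dhx58, Oas1a, Oasl1, Mx2, Cxcl9 and B2m. Gbp3, Rsad2, Ifit3, Eif2ak2, Mx1, Oas3 and Rtp4 were called in none of the 3 comparisons of control tissues. Gbp3 measured 7.64 and 7.37 in control thymus, 7.85, 7.47 and 7.33 in control LSEC and 7.29 and 7.22 in control lung, overlapping between thymus and LSEC, and its widest tissue difference was 0.29 ± 0.20 (LSEC minus lung, limma adjusted p = 0.264). For Rsad2 this holds on its brightest probe set, whereas the other probe sets averaged 7.70 and 8.44 in control LSEC against 6.72 and 7.20 in control lung. The order of tissues for Cxcl9 depended on the probe set: the brightest gave the lowest level in control thymus (6.58 on average), whereas its other probe set gave 6.72 in control thymus, 4.59 in control LSEC and 3.25 in control lung.

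**Figure D5:**
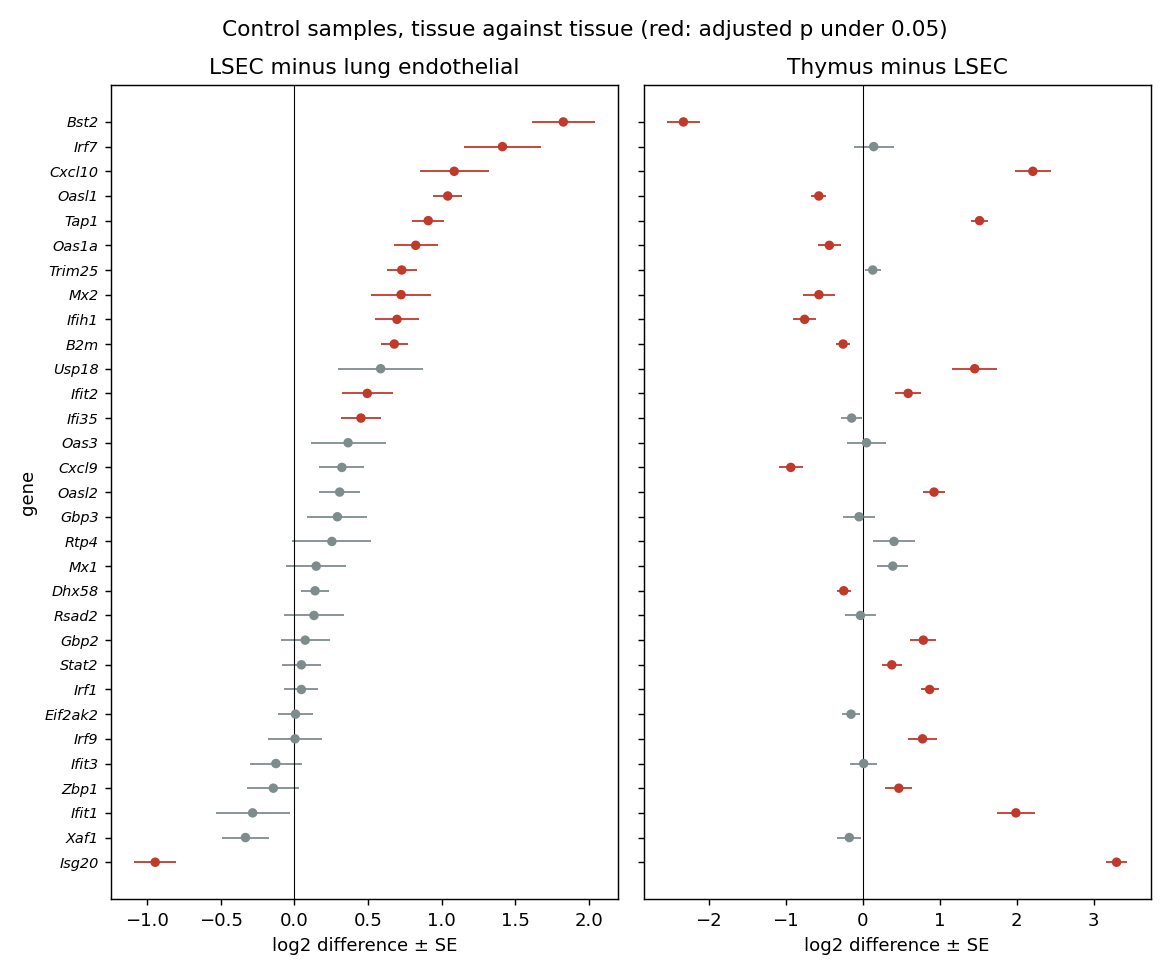
Differences between control tissues (x axis, log2, with SE) for the 31 tested genes, LSEC minus lung endothelial on the left and thymus minus LSEC on the right, with red marking a limma adjusted p under 0.05. Bst2 is highest in control LSEC (1.83 over lung and -2.33 in thymus minus LSEC), whereas Isg20 (3.30) and Cxcl10 (2.21) are higher in control thymus.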

How the data were processed

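RNA from 14 samples was hybridised to 1 Affymetrix mouse array each, after Trizol and RNeasy extraction and biotin labelling, per the labels' protocols. The deposited table holds the authors' value for 45101 probe sets, read as log2 because values lie between 0 and 13.8. That log base is inferred, and how the authors summarized and normalized probe sets is not stated in the labels or headers. Array medians spread over 0.282, above the limit of 0.2, so arrays were quantile normalized in limma 3.58.1 (R 4.3.3). Each gene was its brightest probe set with 1 symbol, and genes were tested if the highest tissue mean reached 6.87, the 40th percentile. Names came from the platform annotation supplied and mouse assembly GRCm38.p6. A single linear model of the 6 groups used every array (lmFit, eBayes, 8 residual and 3.20 prior degrees of freedom), with Benjamini-Hochberg adjustment within each contrast at 0.05. The number of arrays limits the precision. The test was checked on simulated data.

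The members and lists were chosen with earlier results of these data known. Named genes were all 34 members, up to 4 passing genes of each pathway list per tissue and the interferon receptors, and marker genes were named only as leading or absent members of their list. Foxo1, Foxo3 and Foxo4 were named as the floxed genes. Same-numbered arrays did not deviate together: correlations of Cre+ with control deviations were -0.309, -0.0914 and -0.255 in LSEC, -0.235 in lung and 0.0521 in thymus, so the numbers were not used as pairs. Differently numbered arrays correlated at -0.0938 to 0.328 in LSEC, at 0.235 in lung and at -0.0521 in thymus. A pairing of LSEC arrays under other numbers was not tested. Alternatives changed the normalization, filter, probe set rule, variance model, weights, samples in the fit, block and each array in turn.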

Additional observations from a re-analysis of the deposited data

Results flagged for a closer look

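The Cre effect differed between LSEC and thymus in 3 genes by limma's test of the difference of differences: by -1.60 for Gbp3, -0.68 for Oasl1 and -0.93 for Oasl2, each lower in LSEC. In Oasl1 and Oasl2 the Cre+ arrays lay wholly below the controls in LSEC and wholly above them in thymus. In Gbp3 they lay below in LSEC and overlapped in thymus. All 3 calls were lost without thymus Cre+ replicate 2, and also without thymus control replicate 2. In Cre+ replicate 2, 30 of 31 tested genes were higher than in Cre+ replicate 1.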

How the results depend on the processing

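The 3 calls in LSEC became 1 with the brightness limit at the 60th percentile (Cxcl10, the others being too dim to enter) and ranged from 2 to 5 over single arrays left out. Gbp3 was called in 23 of 23 alternatives that tested it (limma adjusted p 0.000264 to 0.0132), Oasl1 in 20 of 23 (0.00574 to 0.0596) and Cxcl10 in 16 of 24 (0.016 to 0.0982). The LSEC median was -0.30 over means of all probe sets and -0.28 to -0.14 with single arrays left out. The medians ranged from 0.036 to 0.093 in lung and from -0.064 to 0.41 in thymus, where 0 to 2 genes were called, and lung kept 0. For LSEC against lung effects, array weights gave 2 calls and single arrays left out 0 to 1. For LSEC against thymus effects, no filter and only the arrays compared gave 0 each, and single arrays left out 0 to 9. Lung against thymus effects kept 0. Control thymus against control LSEC gave 13 with the 60th percentile limit and 13 to 21 with single arrays left out, against 20. Control LSEC against lung gave 11 to 15, and control thymus against lung 14 to 21. With a replicate block, calls were 1 in LSEC (Gbp3), 0 for LSEC against thymus effects and 12 for control thymus against control LSEC, although the numbers did not pair the arrays. A block with the lung numbers crossed, chosen after seeing the data, gave 1, 1 and 13. Of the single-gene values, 2168 kept their side of the threshold, 14 passed it newly, 11 no longer did and 0 reversed. Apart from the filter, the causes were not tested. Genes whose LSEC averages lay under the brightness limit, such as Cxcl10 and Ifit1, have the least signal there.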
